A study of Mus musculus with 18 samples.

Results

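The enzymes of itaconate synthesis and of the tricarboxylic acid (TCA) cycle were examined in RNA-seq data of bone marrow-derived macrophages (BMMs). The genes were Acod1, Cs, Idh1, Idh2, Idh3a, Ogdh, Fh1, Mdh2 and Slc25a1. They were found by gene symbol and matched by Ensembl identifier to the library files, so 9 of 38887 genes are described here. All 9 had at least 646 counts in every library and passed the filter on low counts in every comparison.

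BMMs were cultured from the marrow of adult female C57BL/6J mice with M-CSF, the growth factor that drives macrophage differentiation. There were 3 genotypes, with 3 libraries of cells left untreated and 3 of cells given lipopolysaccharide (LPS, a bacterial outer membrane component sensed by macrophages) at 100 ng/ml for 4 h in each, which gave 6 groups and 18 libraries. All mice, including those called wild-type (WT), carried Cre at the Lyz2 locus, which is active in myeloid cells. GILZ KO mice additionally had loxP sites around exon 6 of Tsc22d3, the gene of the glucocorticoid-induced leucine zipper (GILZ). GILZ TG mice additionally had a Tsc22d3 cDNA at the ROSA26 locus behind a stop cassette that Cre removes. Summed over genes, the expected counts per library ranged from 14583055 to 38557029 (median 24450362).

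Acod1 encodes the mitochondrial decarboxylase that makes itaconate from cis-aconitate, an intermediate of the cycle, and its induction is a known hallmark of activated macrophages. Citrate synthase (Cs) starts the cycle, and fumarase (Fh1) and malate dehydrogenase (Mdh2) close it. NAD-dependent isocitrate dehydrogenase, of which Idh3a is a subunit, and 2-oxoglutarate dehydrogenase carry out its oxidative decarboxylations. Idh2 and Idh1 are NADP-dependent isocitrate dehydrogenases, Idh2 of the mitochondrion and Idh1 of the cytosol. Slc25a1 carries citrate out of the mitochondrion, where it feeds lipid synthesis and acetylation. Itaconate inhibits succinate dehydrogenase, and succinate accumulates in LPS-treated macrophages.

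The labels were first checked against the RNA. Tsc22d3 was at 16.5 ± 2.08 TPM (reads scaled by transcript length and by the library total, so that all genes of a library have the same sum; mean ± SD, n = 3) in untreated WT, at 2.34 ± 0.461 in GILZ KO and at 155.9 ± 3.93 in GILZ TG. Lyz2 had a mean of 12840 TPM in untreated WT, whereas the GILZ KO mean was 33.6 TPM and the GILZ TG mean 33.0 TPM. Lyz2 thus separates WT from both other genotypes although all 3 are described as carrying Cre at this locus, and the zygosity of the insertion is not given in the sources used here. Differences from WT therefore hold the state of the Lyz2 locus as well as that of GILZ, and the 2 cannot be told apart.

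Macrophage markers were abundant in every library. Cd68 had the highest level of the 7 listed markers in untreated cells, with group means between 1468 and 1535 TPM, and Cd14 had the highest after LPS, with 1456 to 1683 TPM. Mertk was low, with 2.23 to 4.98 TPM. The summed level of the 7 markers was 3825 to 4318 TPM in the untreated libraries and 4361 to 5021 TPM after LPS.

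Transcripts of other cells set 2 of the 3 GILZ TG preparations apart. The 7 stromal fibroblast markers, of which Col1a1 was the most abundant, summed to 101.8 and 118.1 TPM in untreated GILZ TG replicates 1 and 2 and to 10.2 TPM in replicate 3, and to at most 22.4 TPM in WT and GILZ KO. For the 7 B lineage markers the sums were 93.6, 157.8 and 36.1 TPM in GILZ TG and at most 35.5 TPM in the others, and for the 8 neutrophil lineage markers 187.0, 482.6 and 68.3 TPM against at most 61.2 TPM. After LPS the same replicates stood apart, with stromal sums of 80.9 and 111.5 TPM against 8.88 TPM in replicate 3. Igkc and S100a9 were the most abundant genes of the latter lists in GILZ TG replicates 1 and 2. The 4 endothelial markers summed to at most 12.2 TPM. The 4 T cell markers summed to at most 0.31 TPM and the 4 erythroid markers to at most 0.88 TPM in any library. The part of these transcripts in the results was not tested directly. The LPS responses of GILZ TG are also given with replicate 3 alone. In bulk RNA, fewer cells of a type and less RNA per cell cannot be told apart.

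Coordinates are those of GRCm38. Acod1 lies at chr14:103046977-103056573 on the + strand, Cs at chr10:128337734-128362479 (+), Mdh2 at chr5:135778480-135790398 (+), Ogdh at chr11:6291633-6356642 (+) and Idh3a at chr9:54586334-54604661 (+). On the - strand are Idh1 at chr1:65158616-65186500, Fh1 at chr1:175600374-175625635, Idh2 at chr7:80094846-80115392 and Slc25a1 at chr16:17925223-17928219. All 9 are annotated as protein-coding.

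RefSeq promoters of GRCm38.p6, 250 bases before to 50 after the transcription start, were found for 8 of the 9 genes. Promoters are shown for the induced gene Acod1 (chr14:103046762-103047061, + strand) and for Cs as the entry enzyme of the cycle (chr10:128337477-128337776, +). Also shown is that of Mdh2 (chr5:135778399-135778698, +), which was the most abundant of the 9 genes if Acod1 is left out. Capitals mark CG dinucleotides and, in Acod1, the letters TATAAA.
Acod1: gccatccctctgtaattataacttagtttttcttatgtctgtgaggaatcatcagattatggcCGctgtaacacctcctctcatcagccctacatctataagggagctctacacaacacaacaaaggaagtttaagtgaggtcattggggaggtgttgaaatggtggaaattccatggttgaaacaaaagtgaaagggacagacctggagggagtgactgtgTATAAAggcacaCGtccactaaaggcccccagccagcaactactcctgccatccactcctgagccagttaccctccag
Cs: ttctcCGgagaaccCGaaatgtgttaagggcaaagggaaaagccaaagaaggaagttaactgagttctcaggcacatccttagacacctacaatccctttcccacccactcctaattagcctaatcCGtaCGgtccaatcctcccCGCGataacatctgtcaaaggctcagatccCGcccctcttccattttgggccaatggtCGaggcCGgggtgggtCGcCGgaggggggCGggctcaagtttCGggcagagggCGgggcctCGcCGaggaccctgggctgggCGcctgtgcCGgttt
Mdh2: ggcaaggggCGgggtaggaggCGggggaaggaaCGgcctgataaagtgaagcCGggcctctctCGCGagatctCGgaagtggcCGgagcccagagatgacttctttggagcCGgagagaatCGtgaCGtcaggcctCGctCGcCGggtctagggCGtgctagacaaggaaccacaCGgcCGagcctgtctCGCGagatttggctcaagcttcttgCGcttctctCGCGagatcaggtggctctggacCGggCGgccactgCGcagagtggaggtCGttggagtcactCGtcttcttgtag

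The Acod1 promoter differed in composition from the others. It had 2 CG dinucleotides and 47.0% G or C, and 23.3% of 32851 promoters have as few CG dinucleotides. Cs had 18 and Mdh2 27 CG dinucleotides, and the promoters of the other members with a sequence had 11 to 37, against a median of 7 over all promoters. TATAAA, the core of the TATA box, was found in the Acod1 promoter at -28 to -23 from the start and in no other member, and 13.6% of all promoters hold these letters on either strand. CACGTG, the E-box, was found in Slc25a1 and in 3 of 6 listed Ogdh promoters (7.15% of all), and TTGCNNAA, of the type bound by C/EBP factors, in 2 of the 6 (10.8%). These 2 windows overlap and share the same E-box and C/EBP match, so that Ogdh holds 2 E-box positions and 1 C/EBP position. Both strands were searched, and TATAAA overlaps none of the other motifs. CCGGAAG, the ETS core (8.86%), and 1 longer form each of the NF-kB (1.63%), interferon regulatory factor (3.44%) and NRF1 (4.6%) motifs were in none of the windows. A match is a description and not a binding site, and no match says only that these letters are not in this window.

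Acod1 was moderately expressed without LPS and differed widely between preparations. Untreated WT libraries had 65.3, 104.9 and 173.8 TPM in replicates 1, 2 and 3, GILZ KO had 131.8, 154.5 and 116.2 TPM, and GILZ TG had 64.1, 72.0 and 164.9 TPM. The values of all 3 genotypes overlapped, the spread within WT and within GILZ TG was more than that within GILZ KO, and replicate 3 was the highest in both WT and GILZ TG. By mean TPM, Acod1 ranked 1485th in WT, 1268th in GILZ KO and 1738th in GILZ TG among all genes.

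After LPS Acod1 was among the most abundant transcripts of the cells. WT libraries had 4934, 5164 and 5807 TPM, GILZ KO had 5356, 5440 and 5111 TPM, and GILZ TG had 4863, 4927 and 5804 TPM. All LPS libraries were far above all untreated ones, and the genotypes overlapped. Acod1 then ranked 16th in WT, 16th in GILZ KO and 18th in GILZ TG by mean TPM. With TMM scaling, explained below, its level rose by 6.14 ± 0.402 (log2 fold change ± SE) in WT, by 5.94 ± 0.398 in GILZ KO and by 6.33 ± 0.405 in GILZ TG. This is 70.7-fold, 61.4-fold and 80.2-fold. The adjusted p-values of edgeR's quasi-likelihood test with TMM were 3.71e-10, 5.57e-10 and 2.84e-10 (Benjamini-Hochberg). Its log2 fold change in WT was the 172nd highest of 13169 genes tested. With library totals in place of TMM, the log2 fold changes of Acod1 were smaller, at 5.47 in WT, 5.3 in GILZ KO and 5.65 in GILZ TG. A permutation test of 3 against 3 libraries cannot go below 0.1, so tests in this text use the spread estimated over all genes.

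**Figure D1:**
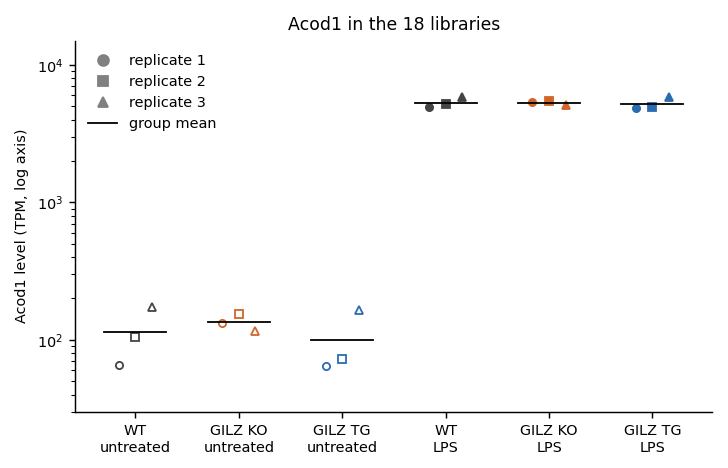
Level of Acod1 in TPM on a log axis for each of the 18 libraries, by group, where symbols give the replicate, open symbols are untreated, filled symbols LPS-treated and lines group means. Untreated libraries lie between 64.1 and 173.8 TPM and LPS-treated ones between 4863 and 5807 TPM, without overlap.

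Acod1 went from below the mean level of citrate synthase to far above it. The TPM ratio of Acod1 to Cs went from 0.644, 0.706 and 0.564 in the 3 genotypes to 36.5, 36.1 and 36.6. After LPS the ratio overlapped between the genotypes. The genes used as a check of the LPS response, Il1b, Tnf, Il6, Nos2, Cxcl10 and Ptgs2, were higher with LPS in every genotype (6 of 6). Il1b, the gene of a pyrogenic cytokine, had log2 fold changes of 10.04, 10.11 and 9.96 in WT, GILZ KO and GILZ TG. Nos2, the inducible nitric oxide synthase, had 11.90, 10.57 and 12.30.

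The other 8 genes were steadily expressed without LPS, and their order by TPM was much the same in the 3 genotypes. Mdh2 was the most abundant, with group means of 309.2 ± 4.07 TPM in WT, 302.2 ± 15.5 in GILZ KO and 302.6 ± 4.02 in GILZ TG. Cs followed with 180.2 ± 6.87, 190.0 ± 2.01 and 177.2 ± 1.63 TPM, and Idh2 with 131.0 ± 6.83, 124.3 ± 4.88 and 120.2 ± 4.81 TPM. The ranges of Mdh2, Cs and Idh2 did not overlap in any untreated group. Ogdh, Idh1, Fh1, Slc25a1 and Idh3a lay between 71.2 and 121.6 TPM in the untreated libraries, where Ogdh overlapped with Idh2 in GILZ KO and neighbours in this order overlapped in at least 1 genotype. The 8 genes together summed to 1045 ± 20.3 TPM in WT, 1077 ± 15.1 in GILZ KO and 1018 ± 6.48 in GILZ TG.

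With LPS the share of the transcriptome held by these 8 genes was lower. Their sum was 692.3 ± 19.4 TPM in WT, 709.7 ± 9.20 in GILZ KO and 698.5 ± 20.6 in GILZ TG. Each of the 8 genes had a lower TPM in all LPS libraries than in all untreated libraries of its genotype, but so had 64.8% of the genes tested in WT, 67.3% in GILZ KO and 65.2% in GILZ TG. Acod1 had a higher TPM without overlap in each genotype, which held for 16.3%, 16.4% and 15.7% of the genes. A lower TPM without overlap was thus also the commonest pattern among all genes.

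**Figure D2:**
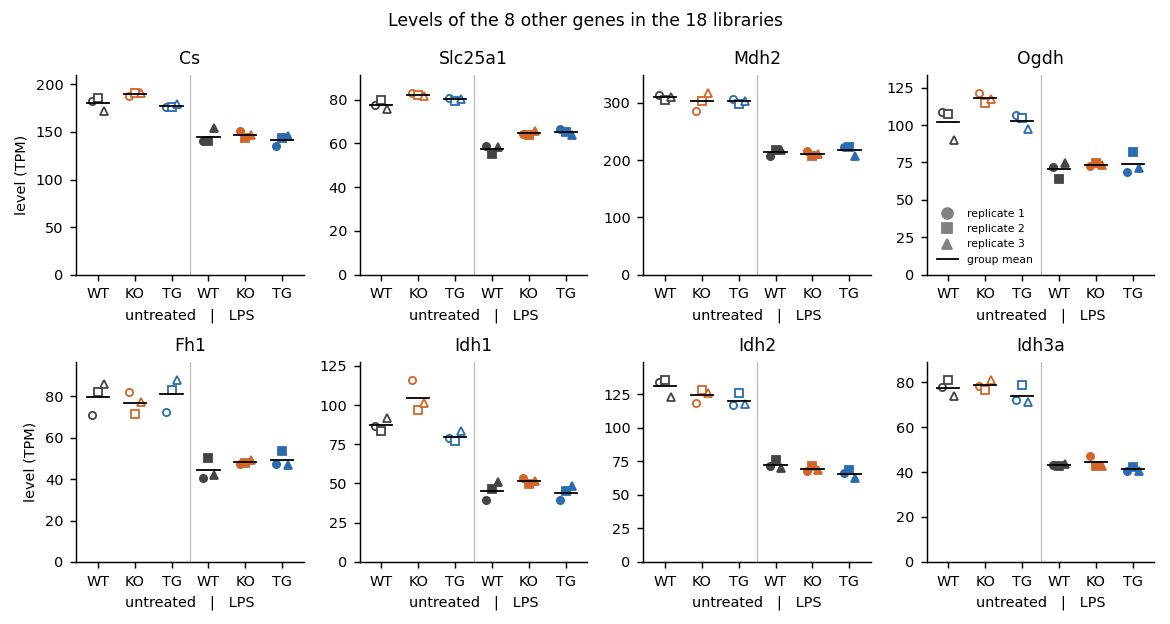
Level in TPM of the 8 other genes in each of the 18 libraries, with untreated groups at the left and LPS-treated groups at the right of each panel, where symbols give the replicate, open symbols are untreated, filled symbols LPS-treated and lines group means. In every panel all LPS libraries of a genotype lie below its untreated libraries on this scale, as for 64.8% to 67.3% of all genes.

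The direction of the LPS response depended on the scaling of the libraries for Cs, Slc25a1, Mdh2 and Ogdh. TPM and library totals refer a gene to all reads. TMM factors, the standard of edgeR, refer it to the typical gene, and were 1.24 to 1.28 in untreated and 0.756 to 0.828 in LPS-treated libraries. The median log2 fold change of all genes was -0.02 in each genotype with TMM. With library totals in place of TMM it was -0.70 in WT, -0.66 in GILZ KO and -0.69 in GILZ TG. The 50 most abundant genes held 21.3% to 23.4% of TPM in untreated and 23.7% to 25.5% in LPS-treated libraries, and the source of the shift was not tested. The responses below are therefore relative to the typical gene (TMM), with the value on library totals beside them.

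With TMM, the log2 fold changes of citrate synthase and the citrate carrier with LPS lay above that of the typical gene. These changes were small among all genes. In WT, 67.4% of the genes tested changed at least as much in size as Cs and 78.7% as Slc25a1. Cs, the entry enzyme, had 182.8, 185.4 and 172.4 TPM in untreated WT, 187.7, 191.0 and 191.3 in GILZ KO and 176.6, 175.9 and 179.0 in GILZ TG. After LPS it had 140.9, 140.1 and 154.5 TPM in WT, 150.8, 143.6 and 146.5 in GILZ KO and 135.7, 143.5 and 146.0 in GILZ TG. The untreated libraries were the higher ones in TPM, with no overlap. Relative to the typical gene, however, Cs rose by 0.32 ± 0.05 (log2 ± SE, TMM) in WT, 0.27 ± 0.05 in GILZ KO and 0.31 ± 0.05 in GILZ TG, while on library totals the values were -0.36, -0.37 and -0.36. The edgeR adjusted p-values with TMM were 2.04e-05, 0.000142 and 2.62e-05.

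Slc25a1, the citrate carrier, had 77.7, 79.6 and 75.7 TPM in untreated WT, 83.1, 82.2 and 81.4 in GILZ KO and 80.6, 79.4 and 80.2 in GILZ TG. After LPS the values were 59.0, 55.2 and 58.1 TPM in WT, 64.4, 63.7 and 65.6 in GILZ KO and 66.4, 65.0 and 63.8 in GILZ TG. WT was the lowest genotype after LPS, without overlap with the others. Relative to the typical gene Slc25a1 rose by 0.20 ± 0.054 in WT, 0.30 ± 0.054 in GILZ KO and 0.26 ± 0.053 in GILZ TG (edgeR adjusted p = 0.00334, 0.000103 and 0.000386), and on library totals the values were -0.48, -0.34 and -0.41. Without untreated replicate 2 of WT its WT value was 0.14, with an adjusted p of 0.0528 in edgeR, and without a filter on low counts it was 0.16 (0.0538).

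With TMM, the log2 fold changes of the isocitrate dehydrogenase genes Idh3a, Idh2 and Idh1 with LPS lay below that of the typical gene. These changes were small among all genes. In WT, 77.2% of the genes tested changed at least as much in size as Idh3a, 83.3% as Idh2 and 70.6% as Idh1. Idh3a, the catalytic subunit of the NAD-dependent enzyme of the cycle, had 77.9, 81.0 and 73.7 TPM in untreated WT, 78.4, 76.6 and 81.0 in GILZ KO and 72.1, 78.8 and 71.4 in GILZ TG. After LPS it had 43.1, 42.8 and 43.7 TPM in WT, 47.3, 42.9 and 42.8 in GILZ KO and 40.6, 42.4 and 40.7 in GILZ TG. The groups before and after LPS were far apart, and the genotypes overlapped at both times except GILZ TG, which lay below the others after LPS. With TMM Idh3a fell by 0.21 in WT, 0.19 in GILZ KO and 0.21 in GILZ TG on the log2 scale (SE 0.048 each, edgeR adjusted p = 0.000747, 0.00205 and 0.000739), and with library totals the values were -0.89, -0.83 and -0.89.

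Idh2, the mitochondrial NADP-dependent enzyme, ranged from 116.9 to 135.8 TPM in untreated and from 62.6 to 76.1 TPM in LPS-treated libraries. Relative to the typical gene it fell by 0.16, 0.17 and 0.17 in WT, GILZ KO and GILZ TG (edgeR adjusted p = 0.0177, 0.0121 and 0.0108). Idh1, the cytosolic counterpart, had 86.6, 83.5 and 91.6 TPM in untreated WT, 115.9, 96.8 and 101.5 in GILZ KO and 78.8, 76.8 and 83.3 in GILZ TG, and 39.2 to 53.7 TPM in the LPS libraries. Here GILZ KO was the highest untreated group and GILZ TG the lowest, with no overlap between any of the 3. Idh1 fell by 0.28 in WT, 0.36 in GILZ KO and 0.28 in GILZ TG with TMM (edgeR adjusted p = 0.0103, 0.00207 and 0.0104). On library totals Idh1 had -0.96, -1.0 and -0.96, and Idh2 -0.83, -0.81 and -0.84. Some of these calls were lost under other settings. In WT, Idh1 had -0.23 without LPS replicate 1 (edgeR adjusted p = 0.0525), and Idh2 had -0.12 without LPS replicate 3 (0.0935) and -0.16 with only the 6 WT libraries (0.0568). In GILZ KO, Idh2 had -0.14 without LPS replicate 1 (edgeR adjusted p = 0.0622), and in GILZ TG, Idh1 had -0.24 without LPS replicate 1 (0.0523).

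For the enzymes Mdh2, Ogdh and Fh1 fewer calls were made. Mdh2 ranged from 286.4 to 317.5 TPM in untreated and from 206.3 to 223.0 TPM in LPS-treated libraries. Its log2 fold changes with TMM were 0.10 in WT, 0.11 in GILZ KO and 0.16 in GILZ TG, and only the last was called (edgeR adjusted p = 0.0856, 0.053 and 0.00574). Mdh2 was also called in WT (0.12, adjusted p = 0.0111) and GILZ KO (0.14, 0.00297) by DESeq2, as was Ogdh in WT (0.11, adjusted p = 0.0333), and Mdh2 was called in GILZ KO with the replicate number as a block (0.11, edgeR adjusted p = 0.0442). Ogdh, a subunit of 2-oxoglutarate dehydrogenase, ranged from 90.1 to 121.6 and from 64.2 to 81.9 TPM, with 0.09, -0.00 and 0.13 (edgeR adjusted p = 0.101, 0.981 and 0.0291). Fh1 ranged from 71.2 to 87.9 and from 40.5 to 53.5 TPM, with -0.10, -0.09 and -0.08, and was called in no genotype (edgeR adjusted p = 0.151, 0.193 and 0.207). The calls of Ogdh and Mdh2 in GILZ TG were lost under several settings. Without a filter on low counts Ogdh had 0.10 (edgeR adjusted p = 0.215) and Mdh2 0.14 (0.0755). Ogdh lost its call in 5 of 6 fits without 1 library, for example without untreated replicate 3 (0.09, edgeR adjusted p = 0.171), and Mdh2 lost its call without untreated replicate 2 (0.12, adjusted p = 0.059). Fh1 was called in WT without untreated replicate 1 (-0.17, edgeR adjusted p = 0.0246). On library totals Mdh2, Ogdh and Fh1 were at -0.51 to -0.78 in the 3 genotypes.

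In all, 3 of the 9 genes were called higher and 3 lower with LPS in WT, 3 and 3 in GILZ KO, and 5 and 3 in GILZ TG at an adjusted p under 0.05 with TMM. Among all 13169 genes tested, 33.5% were called higher and 35.1% lower in WT, 33.2% and 35.4% in GILZ KO, and 33.6% and 35.1% in GILZ TG. With library totals, or with limma on TPM, Acod1 was called higher and all 8 others lower in every genotype, where 15.3% to 16.1% of all genes were called higher and 65.0% to 68.3% lower on the same scales. Relative to the median of all genes on log2(TPM + 1), Cs had 0.20, 0.15 and 0.19 in the 3 genotypes and Slc25a1 0.08, 0.17 and 0.22. Idh1, Idh2, Idh3a and Fh1 lay below that median in each genotype, while Ogdh had -0.02, -0.16 and 0.04 and Mdh2 -0.02, 0.00 and 0.04. On log2(TPM + 0.1) Ogdh had 0.09, -0.05 and 0.14 relative to the median and Mdh2 0.09, 0.12 and 0.14. The place of these genes thus depended on the number added to TPM. For GILZ TG replicate 3 alone, assumed to vary like the other libraries, Acod1 (5.81, adjusted p = 7.23e-07) and Cs (0.38, adjusted p = 0.00153) were the only members called in edgeR, where 27.2% of all genes were then called higher and 25.6% lower. Slc25a1 then had 0.20 (adjusted p = 0.11), Mdh2 0.12 (0.258), Ogdh 0.20 (0.0588), Idh3a -0.14 (0.176), Idh2 -0.19 (0.139) and Idh1 -0.23 (0.203).

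**Figure D3:**
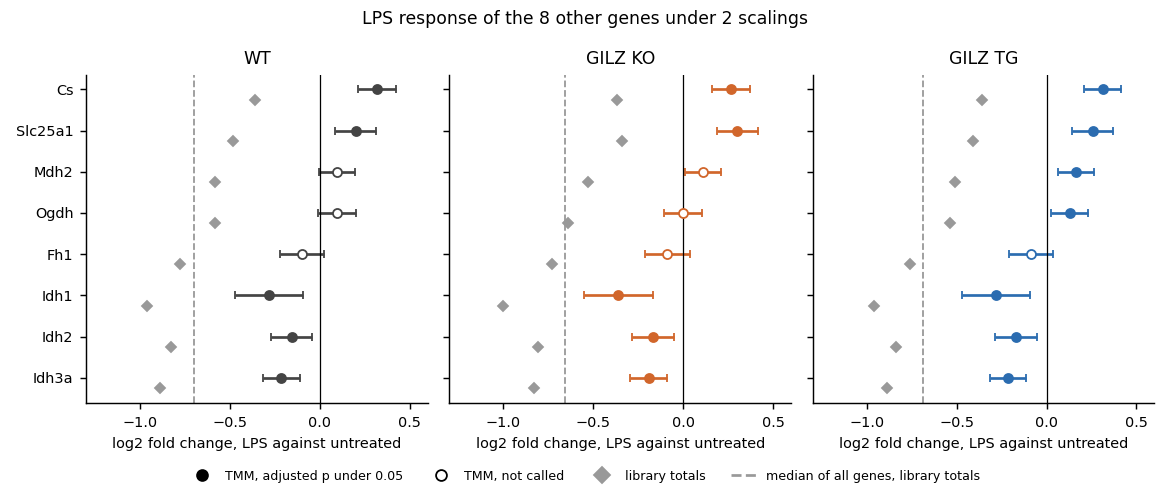
Log2 fold change of the 8 other genes with LPS in each genotype, as circles with 95% intervals for TMM (filled where the edgeR adjusted p was under 0.05) and as grey diamonds for library totals, with the median of all genes on that scale as a dashed line. Every diamond is below 0 and the dashed median lies between -0.70 and -0.66, and the 2 scales differ by a nearly constant shift of all genes.

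Ratios between members within a library do not depend on the scaling of the libraries. On TPM they do depend on the transcript length estimated in each library. This length varied over the libraries by 24.3% for Idh1, 29.6% for Fh1, 17.6% for Slc25a1 and 17.5% for Ogdh. The TPM ratio of Idh3a to Cs, which have 1 annotated transcript each, was 0.426, 0.437 and 0.428 in untreated WT, 0.418, 0.401 and 0.424 in GILZ KO and 0.408, 0.448 and 0.399 in GILZ TG. After LPS it was 0.306, 0.306 and 0.283 in WT, 0.313, 0.299 and 0.293 in GILZ KO and 0.299, 0.296 and 0.279 in GILZ TG. The ratio was lower in all 9 LPS libraries than in all 9 untreated ones, by 30.7%, 27.2% and 30.4% of the mean in the 3 genotypes. The share of all genes whose ratio to Cs was lower with LPS without overlap was 50.6% in WT, 50.2% in GILZ KO and 49.4% in GILZ TG. Idh2, Idh1 and Fh1 also had lower ratios to Cs without overlap in every genotype, with mean changes between -36.4% and -19.2%. Mdh2 had mean changes of -14.1%, -9.5% and -10.0%, also without overlap. Ogdh had -14.4% in WT and -19.4% in GILZ KO without overlap, and -10.2% in GILZ TG with overlapping values. The ratio of Slc25a1 to Cs was 8.2% lower in WT, without overlap, and changed by 1.5% in GILZ KO and 1.7% in GILZ TG with overlapping values. These transcripts changed unequally, which says nothing of which of them changed in absolute amount.

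Between genotypes, no member was called in any of the 6 comparisons. Untreated GILZ KO against WT gave 0 of 9 members and 0.0951% of 12621 genes at an adjusted p under 0.05. For GILZ TG against WT it was 0 of 9 and 0.642%, and for GILZ KO against GILZ TG 0 of 9 and 4.94%. After LPS the counts were 0 of 9 each, against 0.0822%, 0.46% and 2.6% of 12164 genes in the same order. The comparisons share groups and are not independent. At an unadjusted p under 0.05, 1 member passed in GILZ TG against WT in each treatment, as did 14.1% of all genes without and 15.2% with LPS, and none in the others (9.6% to 24.6% of all genes), and DESeq2 called 0 members in all 6.

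Without LPS the members of GILZ KO differed from WT by -0.10 (Idh2) to 0.17 (Acod1) on the log2 scale. GILZ TG differed from WT by -0.21 (Acod1) to 0.05 (Slc25a1), and GILZ KO from GILZ TG by -0.08 (Slc25a1) to 0.38 (Acod1). After LPS the ranges were -0.09 (Idh2) to 0.10 (Slc25a1), -0.14 (Idh2) to 0.12 (Slc25a1), and -0.07 (Mdh2) to 0.13 (Idh1). The smallest p-values belonged to Idh2 in GILZ TG against WT, with -0.13 and a 95% interval of -0.25 to -0.02 without LPS (edgeR adjusted p = 0.28). After LPS Idh2 had -0.14 with an interval of -0.28 to 0.00 (edgeR adjusted p = 0.328).

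The precision of these comparisons differed between the members. For most the 95% interval reached 0.12 to either side of the estimate without LPS and 0.14 after LPS (median of the 9). Acod1 without LPS was the exception. Its interval was -0.73 to 1.07 in GILZ KO against WT, -1.11 to 0.69 in GILZ TG against WT and -0.52 to 1.29 in GILZ KO against GILZ TG, so changes of about 2-fold in untreated cells were not detectable. After LPS the intervals of Acod1 were -0.21 to 0.20, -0.23 to 0.18 and -0.19 to 0.23. With GILZ TG replicate 3 alone, the untreated difference of Acod1 from WT was 0.52 in place of -0.21. It was also reversed without untreated WT replicate 3 (0.26) or GILZ TG replicate 1 (0.03), and the difference of GILZ KO from WT was -0.13 without WT replicate 1.

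**Figure D4:**
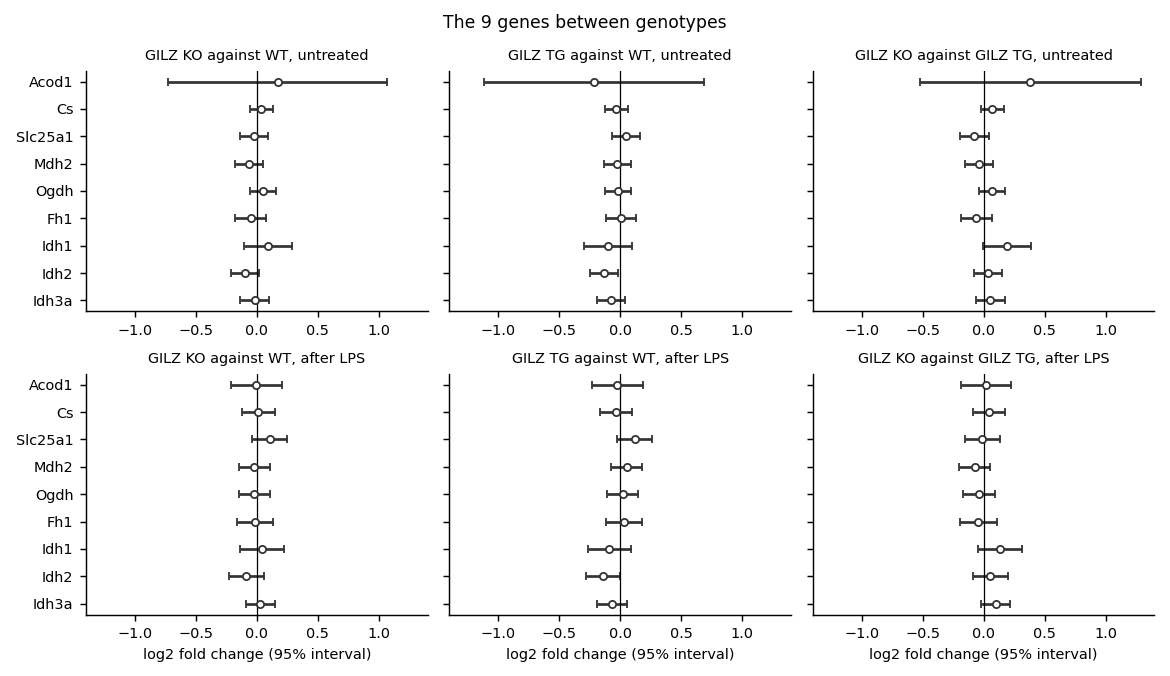
Log2 fold changes between genotypes of the 9 genes with 95% intervals of the edgeR fit, untreated in the upper and after LPS in the lower row, with open circles for an adjusted p of 0.05 or more, which held for every gene and comparison. The interval of untreated Acod1 spans -0.73 to 1.07 in GILZ KO against WT, while most others reach about 0.12 to either side.

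On TPM some groups did not overlap although no count test was passed. Cs, Idh1, Ogdh and Slc25a1 were higher in untreated GILZ KO than in WT in all libraries (4 of 9 members, 17.2% of all genes in either direction), and the same 4 were higher than in GILZ TG (28.7%). For Slc25a1 the count test pointed the other way, with -0.03 against WT and -0.08 against GILZ TG. Idh1 was lower in untreated GILZ TG than in WT (1 of 9, 14.9%). After LPS 1 member was higher in GILZ KO than in WT (Slc25a1, 16.3%), and 3 separated GILZ TG from WT (15.2%), with Slc25a1 higher and Idh2 and Idh3a lower. Idh1 and Idh3a were higher in GILZ KO than in GILZ TG (2 of 9, 20.6%). These shares were computed on TPM and on the same genes as the count tests.

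Idh1 was the member for which TPM and counts differed most between genotypes. On log2(TPM + 1), limma called Idh1 higher in untreated GILZ KO than in GILZ TG, with 0.39 and an adjusted p of 0.0348, while the count test gave 0.19 with an interval of -0.01 to 0.39 (edgeR adjusted p = 0.218). TPM divides by an effective length that was estimated in each library from 3 annotated transcripts. This length of Idh1 was 1668 to 1835 bases in untreated GILZ KO, 1848 to 1986 in WT and 1915 to 2005 in GILZ TG. Over all libraries it varied by 24.3% for Idh1, 29.6% for Fh1, 17.6% for Slc25a1 and 17.5% for Ogdh, and by at most 0.301% for Acod1, Cs and Idh3a, which have 1 transcript. Of the 4 members that separated untreated GILZ KO on TPM, Idh1, Ogdh and Slc25a1 varied in length and Cs did not. Fh1 varied the most and did not separate GILZ KO. Whether length played a part, or transcript use differed, was not tested.

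The difference of the LPS response between genotypes was tested directly. No member passed (0 of 9 in each of 3 tests), and few genes did among 13169, with 0.0152% for GILZ KO minus WT, 0.00759% for GILZ TG minus WT and 0.121% for GILZ KO minus GILZ TG. No member had an unadjusted p under 0.05, which 6.36%, 3.09% and 9.92% of all genes had in GILZ KO minus WT, GILZ TG minus WT and GILZ KO minus GILZ TG, and DESeq2 called 0 members. With the replicate number as a block the tests called 8, 2 and 144 genes and 0 members. The difference for Acod1 was -0.20 (95% interval -1.17 to 0.76) for GILZ KO minus WT, 0.18 (-0.78 to 1.15) for GILZ TG minus WT and -0.38 (-1.35 to 0.58) for GILZ KO minus GILZ TG. For the other 8 genes the estimates lay between -0.13 and 0.10. Ogdh had the smallest p-values, with -0.10 for GILZ KO minus WT (edgeR adjusted p = 0.899) and -0.13 for GILZ KO minus GILZ TG (adjusted p = 0.587). That Ogdh was called with LPS in GILZ TG and not in WT or GILZ KO is therefore no difference between the genotypes that passed a test.

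The remaining genes of the pathway were described from lists of 51 genes, of which 49 were tested. With TMM 18 were called higher and 10 lower with LPS in WT, 23 and 9 in GILZ KO and 22 and 9 in GILZ TG, with medians of 0.09, 0.16 and 0.14 beside -0.02 for all genes. Over all genes 33.2% to 33.6% were called higher and 35.1% to 35.4% lower, and the counts of the lists below are to be read against these shares. On library totals the counts were 4 and 40, 6 and 38, and 3 and 39, against 15.9% and 68.3% of all genes in WT, 15.5% and 67.2% in GILZ KO and 15.5% and 68.3% in GILZ TG, with medians of -0.59, -0.48 and -0.54 beside -0.70, -0.66 and -0.69. Directions in the next paragraphs are relative to the typical gene (TMM).

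Of the 12 other TCA cycle enzymes, 7 were higher in WT, 8 in GILZ KO and 9 in GILZ TG, and none was lower. Dld, the lipoamide dehydrogenase shared by the pyruvate and 2-oxoglutarate complexes, had 0.69, 0.77 and 0.64 in WT, GILZ KO and GILZ TG. Its mean TPM went from 115.2 to 120.3, from 112.3 to 123.2 and from 114.0 to 114.1. Dlst, its partner in the 2-oxoglutarate complex, had 0.36, 0.39 and 0.34. Sdha, the catalytic subunit of succinate dehydrogenase that itaconate inhibits, had 0.23, 0.21 and 0.25 (edgeR adjusted p = 0.00085, 0.00208 and 0.000433).

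Among 13 genes of pyruvate entry, 4 were higher and 4 lower in WT, 5 and 4 in GILZ KO, and 4 and 4 in GILZ TG. Mpc1, a subunit of the mitochondrial pyruvate carrier, had 0.71, 0.79 and 0.82 in the 3 genotypes. The kinases that switch off pyruvate dehydrogenase moved in different directions. Pdk3 had 0.82, 0.68 and 0.70 and Pdk2 -1.29, -1.72 and -1.39, while Pdk1 had -0.15, -0.22 and -0.23, all called. Pdk2 was a rare transcript, with 3.81 TPM in untreated and 1.02 TPM in LPS-treated WT. Pdk4 was at or below 0.74 TPM in every library and was not called (-1.2, 0.19 and -0.04). The phosphatases that reactivate the complex, Pdp1 and Pdp2, had -0.38 and -0.53 in WT and were called lower in each genotype.

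Of 4 further mitochondrial carriers, 2 were higher in each genotype and 1, 1 and 2 lower. Of 9 genes of glutamine and aspartate entry tested, 2, 4 and 3 were higher and 3, 2 and 3 lower. Of 6 cytosolic genes of isocitrate, malate and citrate use, 1, 1 and 2 were higher and 1, 1 and 0 lower, and of 5 genes of itaconate and succinate handling and response tested, 2, 3 and 2 were higher and 1, 1 and 0 lower. Slc25a12, a mitochondrial aspartate-glutamate carrier, had 1.42, 1.25 and 1.54 and went from 57.3 to 109.3 TPM in WT, so that it was also higher on that scale. Slc25a10, the dicarboxylate carrier, had 0.50, 0.58 and 0.55. Ass1, which joins citrulline and aspartate, had 2.38, 2.34 and 2.67. Slc1a5, a glutamine transporter of the cell surface, had -1.03, -0.92 and -0.85. Irf1, an interferon regulatory factor that is itself induced by LPS, had 4.40, 4.25 and 4.60, and Hif1a, the hypoxia-inducible factor stabilized by succinate, 0.89, 0.88 and 0.78. Between genotypes 2 genes of these lists were called, 1 of 48 tested without LPS and 2 of 48 after LPS, against 4.94% and 2.6% of all genes. Me1, the cytosolic malic enzyme, was higher in GILZ KO than in GILZ TG by 0.50 without LPS (edgeR adjusted p = 0.0402) and by 0.60 after LPS (0.0377), and Irf1 differed between the same genotypes by -0.45 after LPS (adjusted p = 0.0323). Each call was also lost in 5 of 6 fits without 1 library, those of GILZ KO included, with adjusted p-values of 0.155 for untreated Me1, 0.167 for Me1 after LPS and 0.161 for Irf1 in edgeR without GILZ KO replicate 1. With GILZ TG replicate 3 alone none remained, with 0.24 (adjusted p = 0.31) and 0.33 (0.397) for Me1 and -0.33 (0.362) for Irf1 in edgeR.

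**Figure D5:**
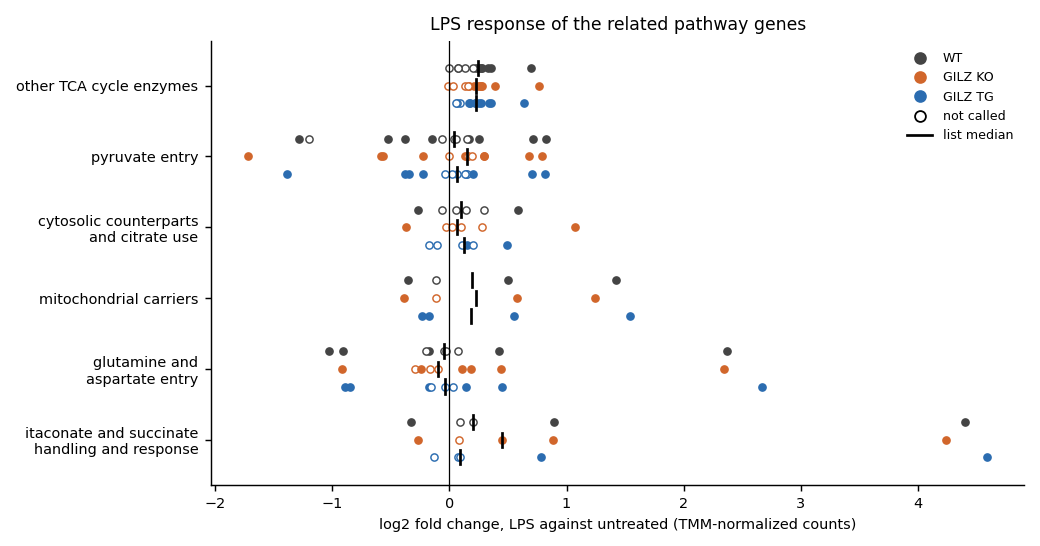
Log2 fold change with LPS (TMM-normalized counts) of the genes of 6 related lists in the 3 genotypes, filled where the adjusted p was under 0.05, with bars for list medians. Of 12 other TCA cycle enzymes 7 to 9 were called higher and none lower, but on library totals most of these genes are lower (40 of 49 in WT), as the median of all genes is then -0.70.

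The genes most like Acod1 over the 18 libraries were Kctd12 (Pearson r = 0.9979), Srgn (0.9976), Acot9 (0.9974), Nod2 (0.9974) and Slc2a6 (0.997), by log2(CPM + 1) among 11979 protein-coding genes. For Cs they were Slc25a37 and Pirb, for Idh1 Gapt, for Idh2 Smco4 and Acads, for Idh3a Trmt2b and Mboat1, for Ogdh Atm and Pi4ka, for Fh1 Hmgn1 and Smim4, for Mdh2 Aup1 and Gpatch3, and for Slc25a1 Med27 and Csf2ra. The libraries share the split by LPS, which dominates these values. Spearman correlation named none of the same genes except Acads for Idh2 and Csf2ra for Slc25a1. All pairs of members were also compared within groups, after the group means were taken out. The highest values over the 18 libraries were r = 0.772 for Mdh2 and Slc25a1, 0.76 for Idh2 and Fh1 and 0.721 for Acod1 and Idh1. These were picked as the highest, and the other pairs ranged from -0.541 (Ogdh and Mdh2) to 0.615 (Cs and Idh1). These values are descriptions over libraries that also share depth and preparation.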

How the data were processed

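RNA was measured by poly(A)-selected, strand-specific, single-end RNA-seq in 18 libraries. The authors mapped reads to GRCm38/mm10 with grape-nf and deposited, for each library, expected counts per gene and TPM, a within-library share per length that carries no depth. The columns are laid out as RSEM writes them, but the counting tool is not given in the sources used here. The authors also deposited tables of their own DESeq2 1.40.2 comparisons, with a mean normalized signal over all libraries, fold changes and p-values. Of these deposited tables only gene symbols and gene types were used. FastQC 0.11.2 is also named in the submitters' processing notes. The study describes 3 mice per group, but neither it nor the labels say whether samples with the same number share a mouse. In GILZ TG same-numbered untreated and LPS samples deviated together (correlations 0.321, 0.534 and 0.667), and the fit with this pairing as a block changed no member's call there.

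Expected counts were rounded to whole numbers and tested with edgeR 4.0.16 in R 4.3.3 (filterByExpr, TMM, quasi-likelihood test, Benjamini-Hochberg over all genes tested, threshold 0.05). The LPS responses and their differences came from 1 fit of 18 libraries and 13169 genes, and genotypes were compared within a treatment in fits of 9 libraries (12621 genes untreated, 12164 after LPS). Alternatives were DESeq2 1.42.0, its size factors, no filter or a CPM of at least 1 in 3 libraries, limma 3.58.1 on log2(TPM + 1) or log2(TPM + 0.1), other sets of libraries, a replicate block and leaving out each library. Library totals in place of TMM and GILZ TG replicate 3 alone were chosen after seeing the data. The scripts were tested on simulated data. Members, related lists and markers were chosen with earlier results of these data known. The text names all 9 members, genes of these lists, and for each member the genes with the highest Pearson correlation over the libraries. Some genes that this rule names are not reported here. Coordinates are those of GENCODE M21, whose symbols matched 37570 of 38887 genes.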

Additional observations from a re-analysis of the deposited data

Results flagged for a closer look

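The LPS response of Tsc22d3, the gene that the genotypes alter, differed between genotypes by the edgeR interaction test. It was 2.02 higher on the log2 scale in GILZ KO than in WT (adjusted p = 0.000782) and 1.43 higher in GILZ TG than in WT (adjusted p = 0.00139). Tsc22d3 went from 16.5 to 5.15 TPM with LPS in WT, from 2.34 to 2.91 TPM in GILZ KO and from 155.9 to 131.7 TPM in GILZ TG. GILZ TG also carries the cDNA at ROSA26, so its values are not those of the native gene alone. The GILZ KO libraries held only 45 to 74 counts of Tsc22d3. None of the 9 enzyme and carrier genes met a criterion for a closer look.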

How the results depend on the processing

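The responses of Acod1 kept direction and call in every genotype under every setting tried. Idh1, Idh2, Idh3a and Fh1 kept their direction in each genotype under TMM, size factors, library totals and both limma scales, and Cs, Slc25a1, Mdh2 and Ogdh did not. With LPS in WT, DESeq2 called 5 members higher (34.5% of all genes), and limma on log2(TPM + 1), limma on log2(TPM + 0.1) and library totals each called 1 higher and 8 lower, with 65.0%, 65.1% and 68.3% of all genes lower and 16.1%, 16.1% and 15.9% higher. In GILZ KO and GILZ TG these 3 scalings also called 1 higher and 8 lower. In GILZ TG 3 were called higher without a filter (4350 of 21604 genes) and 3 with 6 libraries only (31.0% of all genes), and replicate 3 alone gave 2 higher and 0 lower (27.2% and 25.6%). Without 1 library, 2 to 3 members were called higher and 2 to 4 lower in WT, 3 and 2 to 3 in GILZ KO, and 3 to 5 and 2 to 3 in GILZ TG, with 29.8% to 32.3% of all genes higher and 32.7% to 35.6% lower in WT, 30.1% to 31.6% and 32.7% to 34.1% in GILZ KO, and 30.4% to 32.3% and 32.5% to 34.1% in GILZ TG.

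On log2(TPM + 1), log2(TPM + 0.1) and library totals the WT responses were reversed to -0.43, -0.44 and -0.48 for Slc25a1, -0.31, -0.31 and -0.36 for Cs, -0.53, -0.53 and -0.58 for Mdh2, and -0.53, -0.54 and -0.58 for Ogdh. In GILZ KO they were -0.34, -0.35 and -0.34 for Slc25a1, -0.37 in each for Cs, and -0.51, -0.51 and -0.53 for Mdh2, and Ogdh had 0.03 with DESeq2 and with its size factors. In GILZ TG they were -0.3, -0.3 and -0.41 for Slc25a1, -0.32, -0.32 and -0.36 for Cs, -0.48, -0.48 and -0.51 for Mdh2, and -0.47, -0.48 and -0.54 for Ogdh. These scalings refer to all reads, and the median of all genes moves with them.

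No member was called between genotypes, or for a difference in response, except Idh1 in untreated GILZ KO against GILZ TG by limma (1 member at each pseudocount). Genes called in untreated GILZ KO against WT were 79 with DESeq2, 21 without a filter and 20 with 6 libraries. In GILZ TG against WT they were 315, 175 and 20, with 41 and 32 by limma and 26 with replicate 3 alone. In GILZ KO against GILZ TG they were 1218 with DESeq2, 268 and 264 by limma and 34 with replicate 3 alone. After LPS, in the same order of comparisons, DESeq2 called 100, 274 and 715 genes, no filter 88, 412 and 822, and all 18 libraries 29, 252 and 795. Limma on log2(TPM + 1) called 17, 30 and 147, on log2(TPM + 0.1) 31 and 149 in the last 2, 6 libraries 27 and 15 in the first 2, and replicate 3 alone 34 in the last. For the differences in response, GILZ KO minus WT gave 20 with DESeq2 and 1 with size factors, a stricter filter, limma or library totals. GILZ TG minus WT gave 2 with DESeq2 or limma on log2(TPM + 1) and 0 with replicate 3 alone, and GILZ KO minus GILZ TG 150 with DESeq2, 63 without a filter, 10 by limma on log2(TPM + 0.1), 28 on library totals and 0 with replicate 3 alone. The cause was not tested. Without 1 library the untreated comparisons gave 5 to 6, 16 to 665 and 79 to 1306 genes, those after LPS 4 to 23, 15 to 1067 and 24 to 1403, and the differences in response 1 to 4, 1 to 8 and 0 to 82.

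Small differences of single members were also reversed. Slc25a1 in untreated GILZ KO against GILZ TG had 0.04 by limma, and its difference in response between them -0.05. Acod1 after LPS in GILZ KO against WT had 0 by limma and 0.02 on library totals. With replicate 3 alone, Acod1 in GILZ TG against WT was 0.52 without and 0.16 with LPS, in GILZ KO against GILZ TG -0.34 and -0.17, and its differences in response -0.34 (GILZ TG minus WT) and 0.13 (GILZ KO minus GILZ TG), and Idh1 after LPS in GILZ KO against GILZ TG was -0.02. The Idh2 response in GILZ TG minus WT was 0 without a filter or with a stricter one. Without 1 library, Acod1 ranged from -0.13 to 0.64 in untreated GILZ KO against WT, from -0.78 to 0.26 in GILZ TG against WT, and after LPS from -0.05 to 0.04, -0.13 to 0.04 and -0.04 to 0.12 in the 3 comparisons. Its differences in response ranged from -0.65 to 0.1 and -0.27 to 0.78 against WT, that of Idh2 from -0.05 to 0.03 in GILZ TG minus WT, and the response of Ogdh in GILZ KO from -0.03 to 0.01. Spearman correlation shared 1 gene with Pearson for Idh2 and Slc25a1 and 0 for the others.

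Of same-numbered samples, 4 of 18 pairs across genotypes and 6 of 9 across treatments correlated over 0.1, the latter with all 3 pairs of GILZ TG. The correlations ranged from -0.194 to 0.394 across genotypes and from 0.015 to 0.667 across treatments. The main tests took numbers as pairs in no genotype, GILZ TG included, and pairing entered only the separate fits with a block. With the replicate block, 3, 4 and 5 members were called higher and 3 lower in each genotype (35.0% to 35.7% of all genes higher and 36.5% to 36.6% lower), 0 between genotypes, and the differences in response gave 8, 2 and 144 genes. Mdh2 in GILZ KO was the only member whose call changed with the block.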
